A study of Mus musculus with 12 samples.

Results

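Quiescent hepatic stellate cells, the liver pericytes that hold most of the body's vitamin A, are usually recognised by genes for retinoid storage, lipid droplets and a partly neural set of proteins. The 9 genes described here are Lrat, Aldh1a1, Aldh1a2, Plin2, Reln, Hhip, Ngfr, Gfap and Hand2. They were taken as every probe whose platform annotation names one of these genes, which gave 17 probes of the 45281 on the array and 9 genes of the 19057 that have a probe with a single symbol. The rule that assigns probes to them uses the annotation alone.

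RNA came from cultured mouse stellate cells on 12 single-colour Illumina arrays, 3 in each of 4 groups. All mice carried floxed Pdgfrb alleles (β-PDGFR fl/fl, listed as 129S4/SvJae), so the cells called wild type are floxed cells without Cre. Knockout cells also carried a Cre transgene from an FVB line, driven by the promoter of Gfap, which is itself among the 9 genes. Cells of each genotype were grown in DMEM with 10% fetal bovine serum and then kept in serum-free medium with the albumin vehicle alone or with PDGF-B at 10 ng/ml. Arrays share 6 title codes, 3 per genotype, each with 1 array per ligand state, and cells with the same code are called a preparation. Whether a code stands for an animal, pooled animals or a culture dish is not stated, and the spread that the p-values rest on may therefore be partly technical. How long the ligand was present is not stated in these labels.

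In quiescent stellate cells Lrat esterifies retinol for storage in lipid droplets, which Plin2 coats, and Aldh1a1 and Aldh1a2 oxidise retinaldehyde to retinoic acid. Reelin, the p75 neurotrophin receptor (Ngfr) and glial fibrillary acidic protein (Gfap) are better known from the nervous system, Hhip binds and dampens Hedgehog ligands, and Hand2 is a transcription factor of mesenchymal cells. Culture on plastic is known to activate stellate cells, with loss of retinoid droplets and a rise of smooth muscle actin.

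The arrays measure a probe and not a sequence read, and the probe sequences were not used here. The 250 bases before the annotated start of 4 members are given for orientation, from RefSeq promoter windows on build GRCm38.p6, in which all 9 members had an entry. Lrat and Reln are shown because both were brightest in the same preparation, Aldh1a1 because it was the retinoid gene above background everywhere, and Gfap because its promoter drives the Cre. The Aldh1a1 window belongs to the downstream of its annotated starts, and the Gfap window is the endogenous gene, not the transgene's promoter fragment. Capitals mark matches, on either strand, to 4 short motifs found in many promoters. The half-site bound by retinoid receptors was searched as AGGTCA. Sp1-type boxes were searched by the letters GGGCGG, the element bound by NF-Y by the letters CCAAT, and the element bound by the TATA-binding protein by the letters TATAAA. No matches overlapped.
Lrat (chr3:82903975-82904224, minus strand): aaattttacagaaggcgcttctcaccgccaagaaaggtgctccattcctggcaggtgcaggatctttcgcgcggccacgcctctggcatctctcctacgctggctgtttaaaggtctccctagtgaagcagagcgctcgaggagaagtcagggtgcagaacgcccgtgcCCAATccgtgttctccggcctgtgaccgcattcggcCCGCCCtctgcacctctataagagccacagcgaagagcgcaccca
Reln (chr5:22344706-22344955, minus strand): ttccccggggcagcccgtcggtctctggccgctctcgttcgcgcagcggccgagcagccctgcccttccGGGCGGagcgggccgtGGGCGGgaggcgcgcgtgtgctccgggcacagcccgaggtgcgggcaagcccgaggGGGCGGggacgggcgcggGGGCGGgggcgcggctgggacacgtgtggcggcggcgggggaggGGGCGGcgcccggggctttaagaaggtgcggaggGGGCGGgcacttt
Aldh1a1 (chr19:20601718-20601967, plus strand): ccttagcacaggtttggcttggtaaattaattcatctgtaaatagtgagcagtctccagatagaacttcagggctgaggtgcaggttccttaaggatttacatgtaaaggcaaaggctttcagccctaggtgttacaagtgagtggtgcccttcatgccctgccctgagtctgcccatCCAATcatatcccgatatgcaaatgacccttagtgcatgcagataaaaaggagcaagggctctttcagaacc
Gfap (chr11:102897201-102897450, minus strand): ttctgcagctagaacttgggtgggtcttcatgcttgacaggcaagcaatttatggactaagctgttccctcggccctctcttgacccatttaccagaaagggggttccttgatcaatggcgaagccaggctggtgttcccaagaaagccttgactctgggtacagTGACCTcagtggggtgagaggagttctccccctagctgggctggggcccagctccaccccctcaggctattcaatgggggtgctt
The Reln window held 6 GGGCGG matches and was 80% G or C, against 59.2% for Lrat, 46.4% for Aldh1a1 and 55.6% for Gfap. Lrat had 1 CCAAT and 1 GGGCGG match, Aldh1a1 had 1 CCAAT, and Gfap had 1 AGGTCA. The Gfap AGGTCA and the Lrat GGGCGG lie on the strand opposite to the printed one. Of 32851 promoter windows of the same length, 32.7% held GGGCGG, 33.8% CCAAT, 14% AGGTCA and 12.4% TATAAA. The matches are a description of letters and not of binding.

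Across the arrays 44.34% to 52.87% of probes were above background, and raw medians ran from 86.24 to 96.22. Values are quantile-normalized log2 intensities, and a probe counted as above background on an array where its estimated detection p was under 0.05. The weakest signal above background lay at 5.93 to 5.99 on this scale, and the number of arrays limits the precision of all values. Pdgfrb, the targeted gene, was above background on all 12 arrays and differed by -0.03 between knockout and wild type. Where its probe lies relative to the deleted part is not known here, so it checks nothing about the labels. Stellate and myofibroblast genes were present: Des, the intermediate filament desmin, lay between 7.17 and 9.52, and Acta2, smooth muscle actin, between 13.54 and 14.12. Macrophage and mesothelial markers were present too, as given below beside Aldh1a1 and Plin2.

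With the detection estimate used here, Aldh1a1 and Plin2 were the members above background on all 12 arrays, whereas 36.4% of all probes on the array were. A probe was kept for testing when above background on at least 3 arrays, which held for 58% of all probes, for 7 of the 17 member probes and for 6 of the 9 members. Aldh1a2 was above background on 11 arrays with its brighter probe and on 10 with the other, and Hand2 on 10. Reln was above background on 9 arrays with the probe made to its RefSeq transcript, and its other 4 probes, made to cDNA clones, were above background on 0. Ngfr had 1 probe above background on 7 arrays and 2 on none.

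Lrat, Gfap and Hhip had no kept probe. Lrat was above background on 2 arrays, both of preparation P11, each of the 2 Gfap probes on 2, and Hhip on 1. The members fall into a pair measured well everywhere, a group near the detection limit on most arrays, and 3 with little or no signal. In the middle group Reln stood out in P11, at 1.84 above the limit without and 2.28 with PDGF-B.

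**Figure D1:**
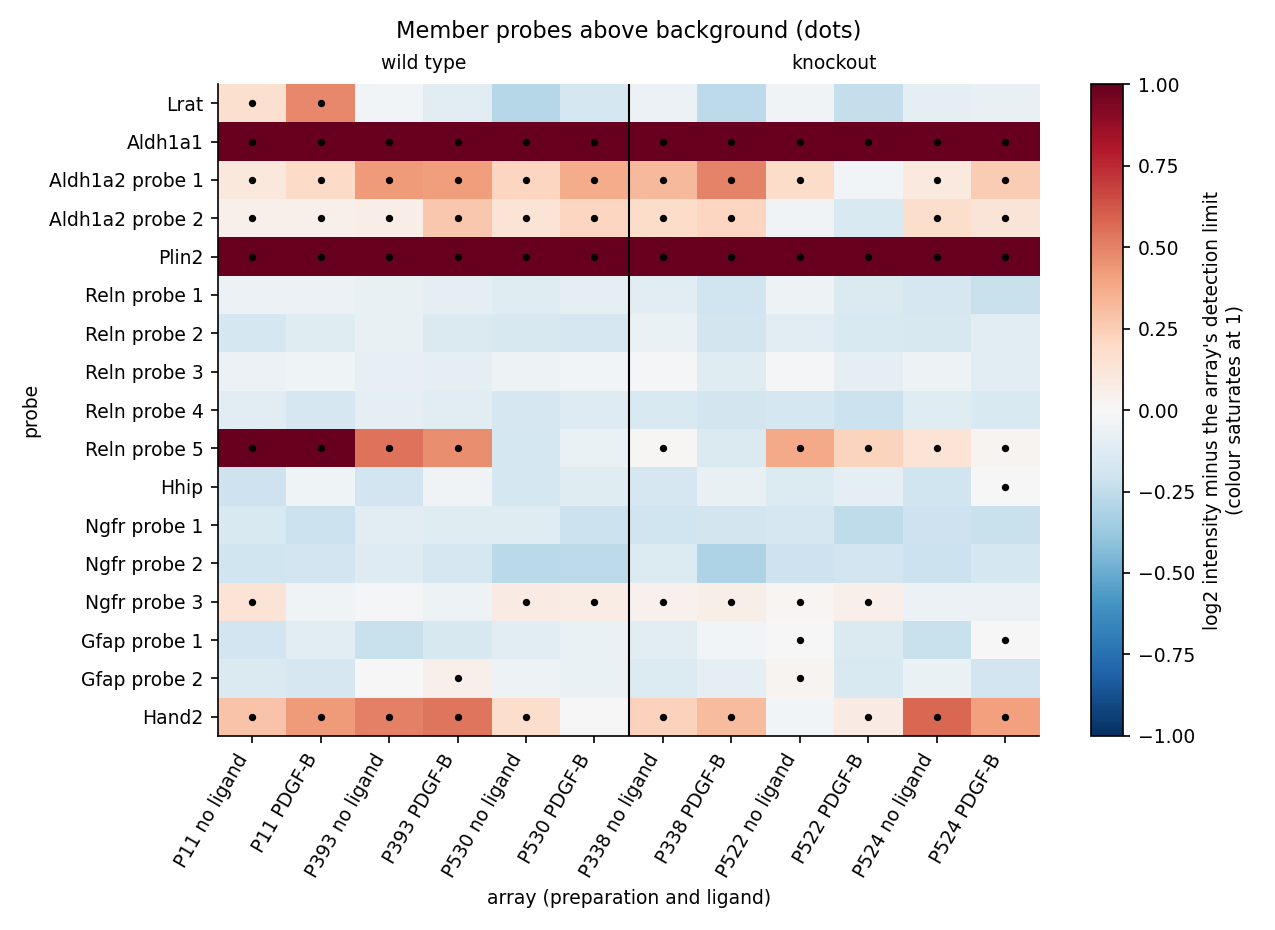
Log2 intensity minus the detection limit of the array (colour) for the 17 member probes (rows) on the 12 arrays (columns), with a dot where the probe was above background. Aldh1a1 and Plin2 have dots on every array, Lrat on the P11 arrays alone, and 6 probes have none.

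Lrat, the retinol acyltransferase taken as a defining stellate gene, was at 6.09 without and 6.43 with PDGF-B in wild-type preparation P11. In the other 10 arrays it lay between 5.66 and 5.90, not well above background. P11 was therefore at least 1.23- to 1.26-fold higher than each other preparation, as the P11 mean against the detection limits of the dim arrays. The knockout arrays all lay below the limit (5.88 ± 0.02 without and 5.77 ± 0.08 with ligand, SD, n = 3 each), as did wild-type P393 and P530. Because Lrat was not kept it entered no main test, and a fit over all 19057 genes without the filter gave an adjusted p of 1 in each of the 6 comparisons (limma).

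Aldh1a1, the cytosolic retinaldehyde dehydrogenase, was bright throughout. Without ligand the wild-type preparations P11, P393 and P530 were at 10.02, 10.16 and 10.39, and with PDGF-B at 10.09, 9.62 and 9.29. The knockout preparations P338, P522 and P524 were at 10.13, 8.87 and 10.49 without ligand and at 9.85, 8.92 and 10.68 with it. P522 was thus the lowest preparation and P524 the highest, both of them knockout, and the wild-type arrays lay between them.

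PDGF-B left Aldh1a1 nearly level in P11 (0.06) and lower in P393 (-0.54) and P530 (-1.10), so the wild-type arrays with and without ligand overlap. The group means were 10.19 ± 0.18 without and 9.66 ± 0.40 with ligand (SD, n = 3), a difference of -0.52 ± 0.48 (limma, standard error, adjusted p = 1). With the preparation as a block the standard error was 0.17 and the unadjusted p = 0.0111 in limma, which did not pass over all genes (adjusted p = 0.998). In knockout cells the pairs differed by -0.28, 0.06 and 0.19, with a mean of -0.01 ± 0.48 (standard error 0.17 with the block). The difference between the genotypes in this response was 0.51 ± 0.68 (limma, adjusted p = 1). With the block its standard error was 0.24 (limma, adjusted p = 0.998). It ran from 0.03 to 0.96 when arrays or preparations were left out, both ends by leaving out an array of P522.

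Knockout cells were at 9.83 ± 0.85 without ligand and 9.82 ± 0.88 with it (SD, n = 3), so their spread exceeded that of the wild type. Knockout minus wild type was -0.36 ± 0.48 without and 0.15 ± 0.48 with ligand (limma, adjusted p = 1 for each). The first value turned to 0.12 without P522, and the second ran from -0.28 without the ligand array of P524 to 0.60 without that of P522. Over the means of preparations the difference was -0.10 (exact permutation, two-sided, p = 0.90; the smallest p that 3 against 3 allow is 0.1). It was -0.48 without P524 and 0.36 without P522. Mouse Aldh1a7 is a close paralog of Aldh1a1, and signal shared between their probes was not tested. The Aldh1a7 probe itself was above background on 4 arrays.

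Summed mesothelial markers were lowest and highest in the same preparations as Aldh1a1. This list holds surface and keratin genes of the liver's outer lining, of which 8 of 10 matched a probe, 8 were tested and 7 were above background on all 12 arrays. Their summed intensity was lowest in P522 (2333) and highest in P524 (16042). Singly, all those tested were lowest in P522, but not all were highest in P524. Upk1b, Upk3b, Gpm6a and Lrrn4 were highest in P524. Msln (8.530, against 8.306 in P524), Krt8 (9.083, against 7.755), Krt18 (7.890, against 6.914) and Krt19 (6.688, against 6.197) were highest in P338. In P530, where Aldh1a1 was lower by 1.10 with ligand, the sum went from 9706 to 5050, and in P393 from 9204 to 8089. In P11 and P524, where Aldh1a1 was higher by 0.06 and 0.19 with ligand, the sum was lower, from 9626 to 8674 and from 16350 to 15734. It ran from 9204 to 9706 in wild type without ligand, 5050 to 8674 with it, 2331 to 16350 in knockout without and 2335 to 15734 with ligand. P338, with a sum of 14661 and Aldh1a1 at 9.99, did not stand above P11, at 9150 and 10.05. In bulk samples, fewer cells of a type and less RNA per cell cannot be told apart, and the part of mesothelial RNA in the Aldh1a1 values was not tested. The biliary sum was also lowest in P522 (339) and highest in P524 (1018), with 4 of 6 markers matching a probe and Epcam and Cftr not kept. The 2 tested, Krt7 and Sox9, were above background on all arrays. Singly, Krt7 was highest in P338 (9.26, against 8.99 in P524) and Sox9 lowest in P11 (7.52, against 7.80 in P522). Their sum ran from 473 to 663 in wild type without and 530 to 584 with ligand, and from 302 to 1034 and 376 to 1003 in knockout, and their part was not tested either.

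The genes whose pattern over the 12 arrays was most like Aldh1a1 were Plscr2, Rtn1 and Cd55, with root mean square differences of centred log2 values of 0.210, 0.215 and 0.220, against a standard deviation of 0.59 for Aldh1a1 itself.

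Aldh1a2, the retinaldehyde dehydrogenase best known from embryonic mesoderm, stayed within 0.50 on the log2 scale. In wild-type P11, P393 and P530 it was at 6.03, 6.35 and 6.16 without ligand and at 6.14, 6.34 and 6.33 with it. In knockout P338, P522 and P524 it was at 6.26, 6.12 and 6.06 without and 6.46, 5.96 and 6.18 with ligand. The groups overlap, and P522 with ligand was the array not above background. Differences ran from -0.07 to 0.09 over the 4 comparisons between single groups, each with a standard error of 0.13 (limma, adjusted p = 1). The other Aldh1a2 probe was also lowest in P522 (5.90 without and 5.84 with ligand).

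Plin2, which coats lipid droplets, was at 9.74, 10.49 and 9.84 without ligand in wild-type P11, P393 and P530, and at 9.93, 10.22 and 9.44 with it. Knockout P338, P522 and P524 were at 10.20, 10.19 and 9.28 without and 9.82, 10.01 and 9.38 with PDGF-B. P393 was the highest preparation and P524 the lowest, a range of 2.03-fold between their means. Ligand and vehicle arrays overlap in both genotypes, and 4 of 6 pairs were lower with ligand.

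The ligand difference was -0.16 ± 0.31 in wild-type and -0.15 ± 0.31 in knockout cells, and knockout minus wild type was -0.13 ± 0.31 without and with ligand (limma, adjusted p = 1 for each). With the preparation as a block the standard error of each ligand difference was 0.115. Summed macrophage and Kupffer markers were lowest where Plin2 was lowest: their intensity was 24292 in P524, against 38104 to 44045 in the other preparations. Of these markers 14 of 15 matched a probe, 12 were tested and 10 were above background on all arrays, and Cd5l and Fcer1g had no kept probe. Singly, those tested were lowest in P524, except Timd4 (lowest in P393) and Clec4f (lowest in P522). The sum ran from 39343 to 42023 in wild type without and 36134 to 43552 with ligand, and from 24023 to 43860 and 24560 to 44230 in knockout. It was not highest in P393, where Plin2 was highest, and its part in the Plin2 values was not tested. The summed liver endothelial markers, 12 of 12 tested and 3 above background on all arrays, were also lowest in P524 (1138, against 1881 to 2980 in the others). Singly, Fcgr2b, Vwf, Cdh5 and Kdr were lowest in P524, and the other markers in P530, P338 or P522. The part of these markers was not tested. Their sum ran from 2277 to 2496 in wild type without and 2151 to 2229 with ligand, and from 1107 to 2925 and 1170 to 3035 in knockout. Closest to Plin2 in pattern were Grn, Fabp5 and Flvcr1 (root mean square differences 0.127, 0.127 and 0.136, against 0.372 for the standard deviation of Plin2). Fabp5, a fatty acid carrier, belongs to the lipid droplet list.

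**Figure D2:**
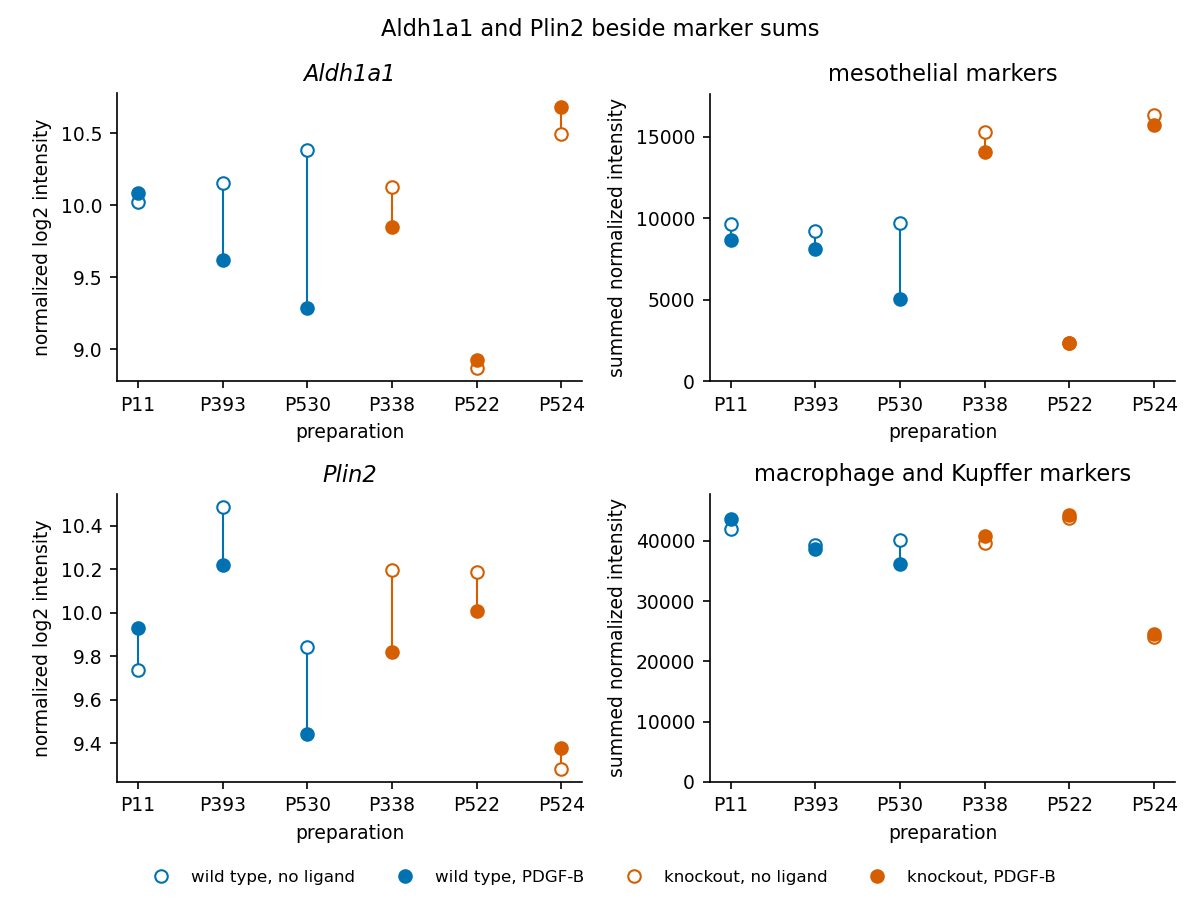
Normalized log2 intensity of Aldh1a1 and Plin2 (left) and summed normalized intensity of the mesothelial and macrophage markers (right) in the 6 preparations, open symbols without and filled symbols with PDGF-B, wild type in blue and knockout in orange. Aldh1a1 and the mesothelial sum are both lowest in P522 and highest in P524, and Plin2 and the macrophage sum are both lowest in P524.

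Reln, the secreted protein reelin, differed between preparations by at least 2.05 on the log2 scale. Wild-type P11 was at 7.77 without and 8.23 with PDGF-B, P393 at 6.47 and 6.39, and P530 at 5.77 and 5.90, the last not above background. Knockout P338 was at 5.95 and 5.81, P522 at 6.32 and 6.21, and P524 at 6.10 and 5.96. P11 stood above every other preparation and was at least 4.13-fold higher than P530, while the knockout preparations lay below P393. The probe was above background on 2 of 3 arrays in each wild-type group, on 3 in knockout without ligand and on 2 with it, so the group differences include arrays that give only a bound.

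Knockout minus wild type for Reln was -0.55 ± 0.59 without and -0.84 ± 0.59 with ligand (limma, adjusted p = 1 for each). Over the preparation means it was -0.70, with the groups overlapping (exact permutation, two-sided, p = 0.50), and -0.07 without P11. Ligand responses were 0.46, -0.08 and 0.13 in the wild-type pairs and -0.13, -0.10 and -0.14 in the knockout pairs. Their means were 0.17 ± 0.59 and -0.12 ± 0.59, and the genotypes differed in response by -0.29 ± 0.84 (limma, adjusted p = 1, 0.998 with the block). These standard errors do not use the pairing and include the distance of P11 from the other preparations. With the preparation as a block they were 0.09 for each ligand response and 0.13 for the difference in response. P11, the brightest preparation for Reln and Lrat, had the lowest summed portal fibroblast markers (3661, against 5211 to 8703 in the others), of which 7 of 7 were tested and 5 were above background on all arrays. Singly, Fbln2, Thy1, Entpd2 and Mfap4 were lowest in P11. Fbln1 (7.142, against 7.378 in P11) and Eln (5.861, against 6.021) were lowest in P522, and Cd34 (6.477, against 6.571) in P530. The sum ran from 3634 to 8498 in wild type without and 3687 to 8908 with ligand. In knockout it ran from 5151 to 8494 without and 5114 to 8388 with ligand. The part of these markers in the result was not tested.

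Hhip, the Hedgehog-interacting protein, was not well above background on 11 arrays and has only a bound there. Its signal was 5.72 to 5.80 without and 5.84 to 5.93 with PDGF-B, and it was higher with ligand in 6 of 6 pairs, by 0.07 to 0.19. Without the filter the averaged difference was 0.14 ± 0.03 (limma, unadjusted p = 0.000404, adjusted p = 1), and with the block the unadjusted p was 0.00422 (limma, adjusted p = 0.661). Except on P524 with PDGF-B (5.93, 0.003 over the limit), these values lie below the signal that marks detection, so no level follows from them.

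Ngfr, the p75 receptor, lay between 5.87 and 6.07 on its kept probe, a range of 0.20 around the detection limit. Over the 4 comparisons between single groups differences ran from -0.06 to 0.04, each with a standard error of 0.07 (limma, adjusted p = 1). Its other 2 probes stayed between 5.65 and 5.82. Gfap, the source of the Cre promoter, lay between 5.74 and 5.98 on its brighter probe and between 5.71 and 5.94 on the other. Its arrays above background were P393 with ligand and P522 without on the first, and P522 without and P524 with ligand on the second, so the 2 probes shared 1 array. The Schwann and glial markers, cells that also express Gfap and Ngfr, had 2 of 6 tested, Mbp and Cdh19, while Sox10, S100b, Erbb3 and Foxd3 had no kept probe.

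Hand2 was at 6.22, 6.43 and 6.12 without ligand in wild-type P11, P393 and P530, and at 6.38, 6.46 and 5.95 with it. Knockout P338, P522 and P524 were at 6.17, 5.91 and 6.53 without and 6.27, 6.07 and 6.34 with PDGF-B. P393 and P524 were high, P530 and P522 low, and the groups overlap. Its differences in the 4 comparisons between single groups ran from -0.05 to 0.03, each with a standard error of 0.175 (limma, adjusted p = 1).

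**Figure D3:**
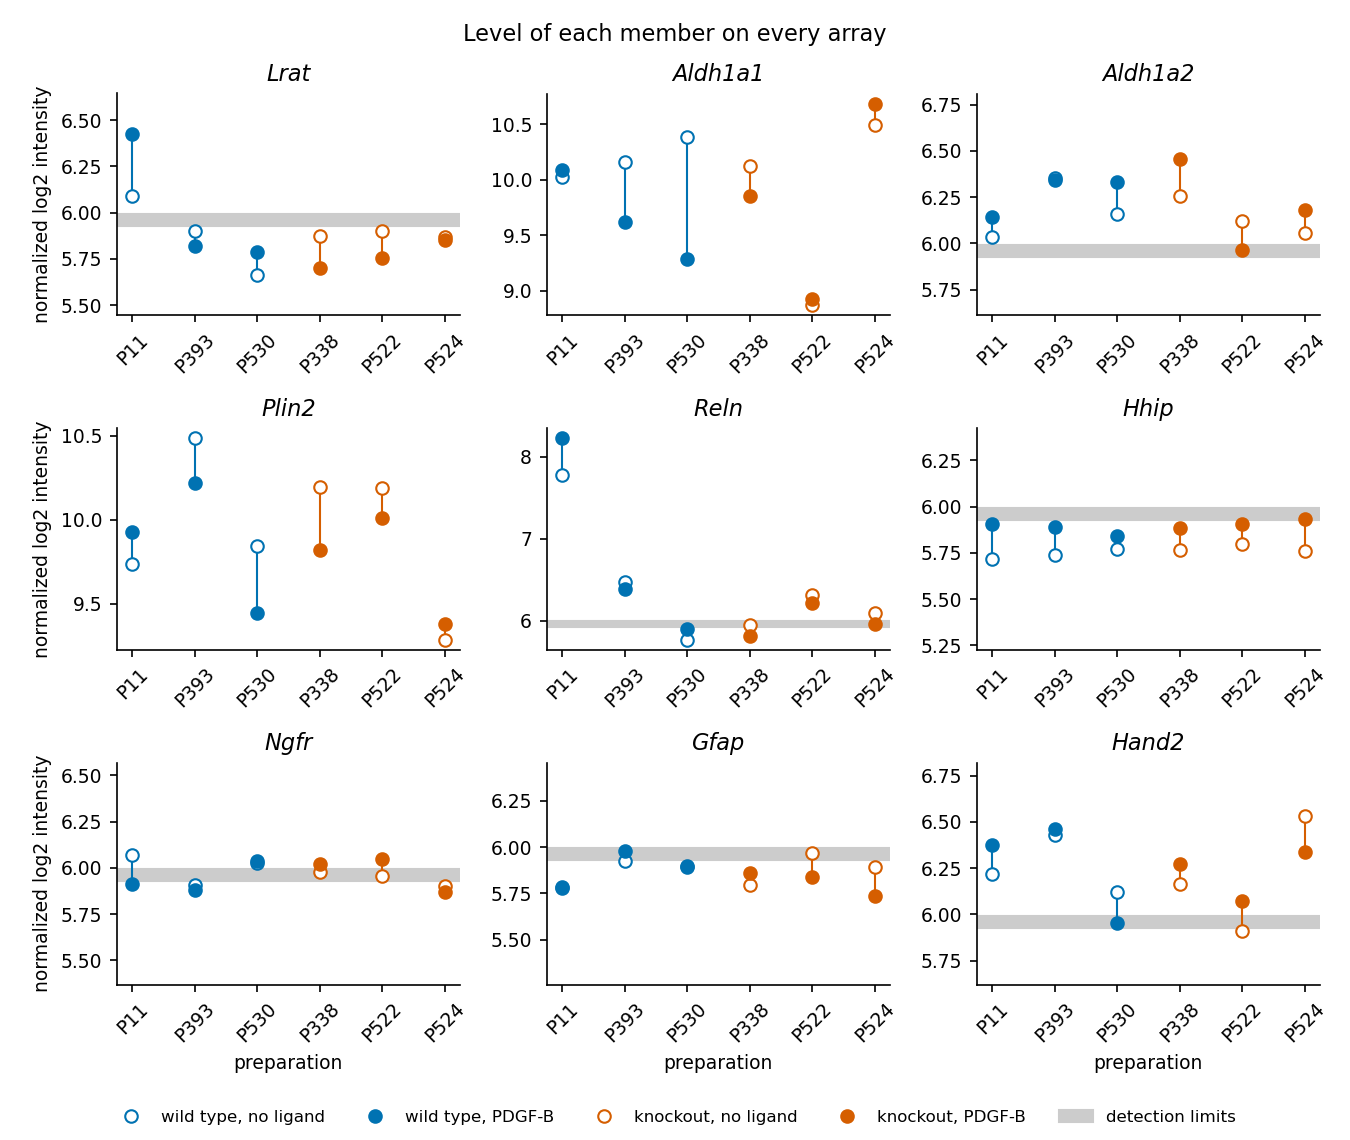
Normalized log2 intensity of the 9 members in the 6 preparations, open symbols without and filled symbols with PDGF-B, wild type in blue and knockout in orange. The grey band spans the detection limits of the arrays, and axes differ between panels. Reln and Lrat are highest in P11, and for Aldh1a1 the lowest and highest preparations are both knockout.

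Set together, 0 of the 6 tested members passed in any comparison (limma, Benjamini-Hochberg over 13297 genes, threshold 0.05), and 0 had an unadjusted p under 0.05 in the fit without a block. With the block 0 passed as well. There the unadjusted p in limma was under 0.05 for Aldh1a1 with PDGF-B in wild type (0.0111) and averaged over genotypes (0.0497, adjusted p = 0.791). It was also under 0.05 for Reln in the difference in response (0.0421, adjusted p = 0.998). The share of all genes under 0.05 with the block is not given, so nothing is read from these values. Over all genes without the block the unadjusted p was under 0.05 for 79 in the wild-type ligand comparison, 134 in the knockout, 113 in their average, 299 and 194 between genotypes without and with ligand, and 80 for the difference in response. Over all genes 0% were called for PDGF-B in wild type, in knockout and averaged over genotypes, 0.00752% for knockout against wild type without ligand, 0.015% with ligand, and 0% for the difference in response. The members' count of 0 is thus what the background gives. The median member difference was -0.02 for PDGF-B in wild type and 0.01 in knockout, against -0.0019 and -0.0021 over all genes. It was -0.09 for knockout minus wild type without ligand and -0.05 with it, against 0.01 over all genes, and members negative numbered 6 of 6 and 4 of 6. The members tested are those bright enough to be kept and are not all members.

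**Figure D4:**
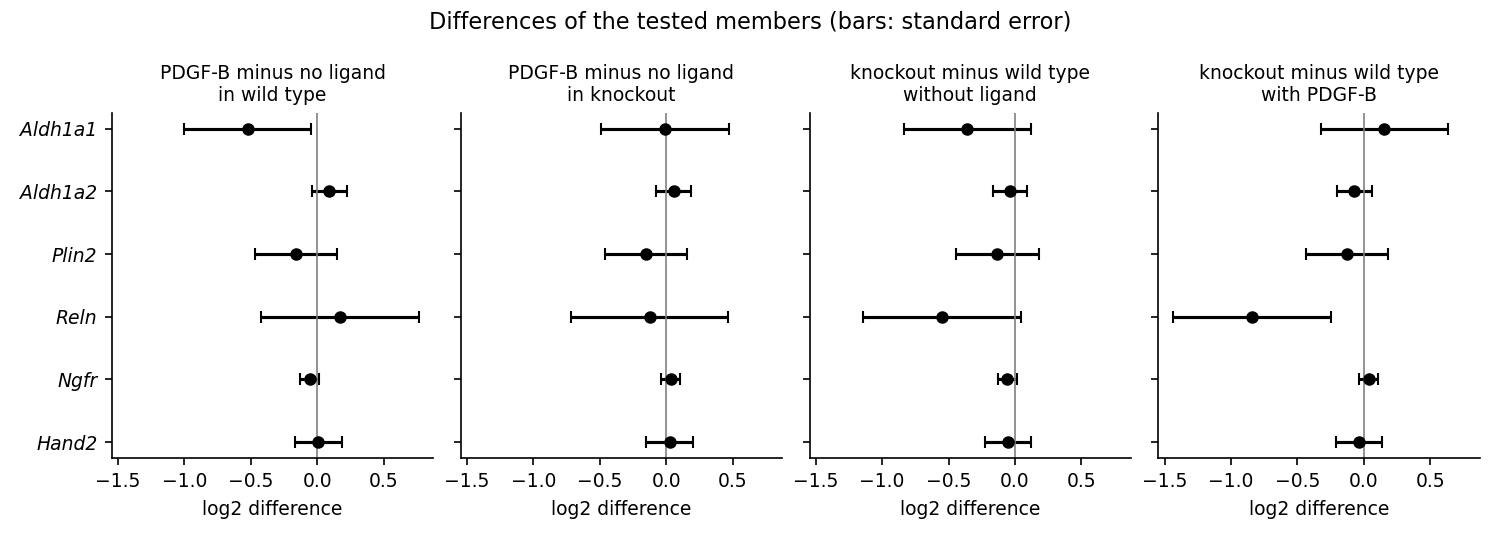
Log2 differences of the 6 tested members (points) with their standard errors (bars) in 4 comparisons, from the fit over all genes without the block. The bars of the ligand comparisons therefore do not use the pairing of arrays by preparation. None passed the threshold, and the widest bars belong to Reln and Aldh1a1.

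More members were called between preparations of the same genotype, but by a test with another error. That error is the spread within preparations, while the fit without the block uses the spread between arrays of a group. The counts are therefore not a like comparison. In a moderated F-test over preparations within genotype, in which the arrays with and without ligand are the only repeats, 5 of 6 tested members passed, against 45.6% of all genes. Reln had the smallest adjusted p (1.5e-06), followed by Aldh1a1 (0.000822), Plin2 (0.00116), Hand2 (0.00982) and Aldh1a2 (0.0441), while Ngfr did not pass (0.377, all limma). Among the 9383 genes above background on all 12 arrays, 58.9% were called, with both Aldh1a1 and Plin2 among them. The Aldh1a1 call was lost without preparation P522 (limma, adjusted p = 0.224). Aldh1a2 was lost without P11, P393, P338 or P524 (adjusted p = 0.0526 to 0.188). Of the total variation over the 12 arrays, 83.7% for Hand2, 81.8% for Plin2, 78.2% for Aldh1a1, 76.4% for Reln, 71.3% for Aldh1a2 and 67% for Ngfr lay between preparations of the same genotype. These shares were not computed over all genes, and Ngfr had its 67% without passing the F-test, so they do not set the members apart. The genotypes took 21.5% for Reln and 3.71% or less for the other 5. The ligand took 6.52% or less for each. The preparation share spans 4 degrees of freedom, more than that of genotype or ligand, so the sizes of the shares are not directly comparable.

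Genes around the members gave the same counts for ligand and genotype. In none of 8 lists on their pathways was a gene called higher or lower in any comparison (limma), with 13 of 696 gene tests at an unadjusted p under 0.05. Between preparations the calls differed from list to list, beside the 45.6% over all genes. Of the retinoid handling and signalling genes 11 of 30 tested were called between preparations. Rdh11, a retinal reductase, lay between 8.99 and 9.73, and Retsat, a retinol saturase, between 8.76 and 9.54. Of the lipid droplet and triglyceride genes 15 of 23 were called, and the brightest were Bscl2, the seipin of droplet assembly (11.25 to 11.69), and Lpl, lipoprotein lipase, which was lowest in P530 (9.88, against 11.11 to 11.93 in the others).

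Of the other quiescent stellate genes 10 of 12 tested were called between preparations and 8 more had no kept probe, among them Vipr1 and Colec10. Ifitm1 (11.99 to 12.91) and Ecm1, an extracellular matrix protein (9.99 to 11.17), were the brightest. Of the Hedgehog genes 5 of 12 were called, with Disp1 (7.77 to 8.99) and Gli3 (7.47 to 8.75) on top, and the target gene Gli1 had no kept probe. Of the Reelin pathway 6 of 10 were called, the brightest being Crk (10.18 to 10.65) and Pafah1b1 (8.35 to 9.32).

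The remaining lists were neurotrophins and receptors with 5 of 11, led by Maged1 (10.42 to 11.79) and Bex3 (10.01 to 11.07), intermediate filaments with 7 of 9, led by Vim (11.55 to 12.39) and Plec (10.76 to 11.83), and mesenchymal transcription factors with 5 of 9, led by Tcf4 (9.27 to 10.42) and Gata6. Gata6, like Aldh1a1, was lowest in P522 (7.61) and highest in P524 (10.85). So were other genes named here: Des (7.268 and 9.505), Disp1 (7.87 and 8.97), Gli3 (7.48 and 8.70), Maged1 (10.60 and 11.76) and Pafah1b1 (8.41 and 9.29). Tcf4 went the other way, highest in P522 (10.42) and lowest in P524 (9.30). So did the endothelial markers Fcgr2b (10.77 and 8.49) and Cdh5 (6.50 and 5.97).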

How the data were processed

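Probe intensity as deposited by the authors comes in a linear table that was not normalized, used here, and in a normalized one, whose column medians were 90.86 to 90.95. How the authors summarised beads and normalized is not stated in the labels. Intensities of the first table were background-corrected (normexp, offset 50), scaled by quantiles and logged (log2) with limma 3.58.1 (R 4.3.3, statmod 1.5.0). No detection p-values were in the tables used, so each array's log2 distribution was mirrored below its mode, sought in the lower 60% of the values, to estimate the background. This estimator was chosen after the members' values and a first fit had been seen, and 33 settings were tried. They kept 13680 to 27380 probes, the one used 26275, and the one tried first, on the linear scale, 27131. The brightest kept probe stood for a gene.

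Of the probes, 34885 had 1 gene symbol in the platform annotation, 18 several and 10378 none listed. The RefSeq table held the gene ID of 34807 of them, and 0 symbols changed.

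Group means were fitted over all 12 arrays with lmFit and eBayes (8 residual degrees of freedom) in 6 comparisons, with two-sided tests and Benjamini-Hochberg adjustment over 13297 genes. Unless the block is named, standard errors of member differences are from a fit without it and do not use the pairing by preparation. Genotypes were also compared over preparation means by exact permutation. The title codes pair arrays: deviations from group means correlated at 0.584 to 0.930 within a code, and all 12 arrays correlated best with their own. Named genes are all members, the 2 brightest tested genes of each list, and the 3 genes nearest in pattern to each member above background on all arrays with a range over 1. Other genes named, such as Aldh1a7, Fabp5, Des and the unkept markers, were chosen after their values were seen. The members and lists were chosen with earlier results of these data known.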

Additional observations from a re-analysis of the deposited data

How the results depend on the processing

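Over 30 settings, 1044 member differences were recomputed and 0 passed (lowest adjusted p 0.791, limma). Of these 98 had the other sign than the reported value, and 3 of them also moved by more than 1 standard error, the size taken here as a reversal. The Reln response of wild-type cells was -0.53 without the ligand array of P11 and ranged to 0.72 when single arrays or preparations were left out. Aldh1a1 in knockout minus wild type without ligand ranged from -0.69 to 0.12, the latter without P522 (array or both arrays). Members called between preparations numbered 2 when only genes above background on all arrays were used, since only Aldh1a1 and Plin2 were then tested. They numbered 4 to 5 without each preparation in turn, an alternative chosen after seeing the data, for which no share over all genes is given. Non-overlapping tested members in the genotype comparison of preparation means numbered 0, and 0 to 1 without a preparation (Reln, without P530). Hhip, which was not tested, did not overlap either (0.03 higher in knockout, exact permutation, two-sided, p = 0.10). The share of non-overlapping genes over all genes is not given, so nothing is read from these counts. Aldh1a2 was not called between preparations with no background correction (adjusted p = 0.0789) or the authors' values (0.0689). With the replicate block 0 members passed in each comparison, and over all genes 2 were called for knockout against wild type without ligand, against 1, and 2 with ligand. The block changed no other call. A fit on only the groups compared gives no value for the averaged comparison or the difference in response.

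The detection estimator decided which dim members were tested. Gfap was kept by 16 of the 33 settings tried, Lrat by 3, Hhip by 0, and Aldh1a1 and Plin2 were above background on all arrays in 33, joined by Aldh1a2 in 3. The setting tried first kept 7 members, including Gfap. It called 0 of them in the 6 comparisons, against 0 to 2 of all 13616 genes. Between preparations it called 5 of them, against 44.6% of all genes. That setting, and the fit without a filter but with the replicate block used for Hhip, were alternatives added after seeing the data. Aldh1a2, Hand2 and Ngfr lie near the detection limit, which limits how finely they can be compared.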
